A study of Arabidopsis thaliana with 6 samples.

Results

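The comparison described here sets jmj28 seedlings of Arabidopsis thaliana against wild-type (WT) seedlings across all genes with a test, ordered by gene family and function. Members were the genes for which the authors' deposited table of jmj28 against WT holds a test, which is 23542 of 34262 listed genes. AT1G65480 (FT) and AT5G15840 (CO) were left out because their entries repeat the values of other genes, which leaves 23540. The study sequenced RNA of whole seedlings of 3 genotypes, jmj28, JMJ28np5-OE and WT, all in the Col-0 ecotype, 14 days old and grown in long days. Each genotype had 2 libraries, and nothing says whether they came from separate cultures of seedlings, so p-values measure only the spread between these samples, which may be technical. JMJ28np5-OE is used here only for a few values given side by side. The labels give neither the kind of lesion in jmj28 nor the number of lines behind either genotype.

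JMJ28 belongs to the KDM3-type JmjC proteins, enzymes that take methyl groups off lysine 9 of histone H3. Methylation of this residue goes with silenced chromatin in plants, and JMJ28 is known for its link to the photoperiod gene CONSTANS. A seedling harvest holds root, leaf, shoot tip and vascular tissue together, so fewer cells of a type and less RNA per cell cannot be told apart in any value below. Plant immunity works in layers that the families below follow. Receptor kinases at the cell surface sense microbial or wall molecules, intracellular TIR and NB-ARC receptors sense pathogen effectors, and salicylic acid or jasmonate then drives output genes such as PR proteins, lectins and chitinases.

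The jmj28 libraries held 13549528 and 11791666 reads and the WT libraries 19693228 and 14309520, as solved from the deposited RPKM means (reads scaled by exon length and library size). Libraries are named deeper and shallower because the means carry no replicate number. The reads of both WT libraries could be recovered for 254 of the 258 falls, and those of both jmj28 libraries for 48 of the 49 rises. The genotype on the other side was in most cases known only as a mean implied by the deposited fold change, which is written "implied" below. Whether the single jmj28 libraries overlap those of WT is then not known, and only the position of the WT libraries around the jmj28 mean can be given. JMJ28 itself (AT4G21430, listed as B160) had an implied 3.12 RPKM in jmj28, against 6.90 and 6.50 RPKM in the deeper and shallower WT library. Its log2 fold change was -1.10 at an FDR of 3.07e-08, per the authors' deposited table. JMJ28np5-OE, the line with raised JMJ28, had 244 and 307 RPKM.

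A gene was called at a deposited FDR under 0.05. In jmj28, 307 of 23540 tested genes were called (1.3%), of which 49 were higher than in WT (0.208% of those tested) and 258 were lower (1.1%). The median log2 fold change over all tested genes was -0.0042, with 49.3% of genes above 0. Most called changes reached 1.5-fold, in 189 of the falls and 34 of the rises, and fewer reached 2-fold. Of the falls, 104 reached 2-fold and 69 stayed under 1.5-fold, with a median of -0.82 on the log2 scale. Of the rises, 10 reached 2-fold and 15 stayed under 1.5-fold, with a median of 0.72. Called genes were moderately expressed, with a median higher genotype mean of 15.8 RPKM for rises and 15.5 RPKM for falls. The share called grew with expression level. It was 0.105% of the 4756 genes under 1 RPKM, 1.12% between 1 and 5 RPKM, 1.49% between 5 and 20 RPKM, 2.09% between 20 and 100 RPKM, and 2.76% of the 977 genes at 100 RPKM or more.

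**Figure D1:**
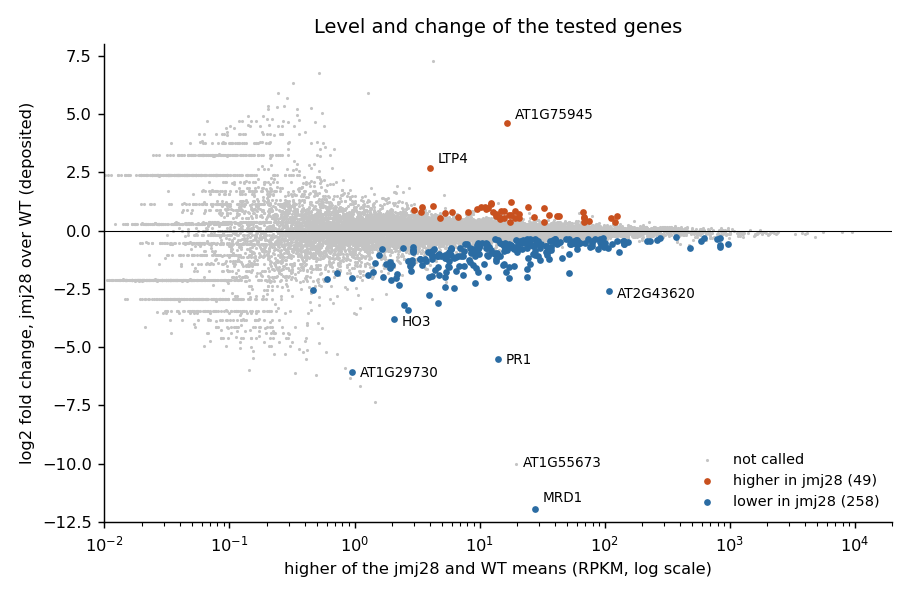
Deposited log2 fold change, jmj28 over WT (vertical axis), against the higher genotype mean in RPKM (horizontal log axis) for the tested genes, with called genes in orange (49 higher) and blue (258 lower). Most calls lie between 5 and 100 RPKM, while AT1G75945 stands out above and MRD1, AT1G29730 and PR1 stand out below.

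The tested genes were sorted into 105 families and functional lists, which hold 6474 genes and 202 of the 307 calls. A call fell in 78 of them. In 54 families every called member was lower in jmj28, in 9 every called member was higher, and 15 had calls in both directions. The remaining 27 had no call. Median log2 fold changes lay under -0.2 in 7 families and over 0.2 in 2. Genes were also grouped by the wording of their RefSeq product alone. The families were formed partly from these products, so the grouping is no separate support. Among 350 products with at least 10 tested genes, S-locus lectin protein kinases had the largest share called, 4 of 21 (19.0%, all lower in jmj28). Chitinases followed, with 1 higher and 1 lower of 11 (18.2%), and cysteine-rich receptor-like kinases had 4 of 34 (11.8%, all lower). Other receptor kinase products ranked low. Leucine-rich repeat protein kinases had 1 higher and 2 lower of 115 (2.61%), and leucine-rich receptor-like protein kinases had 0 of 23.

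**Figure D2:**
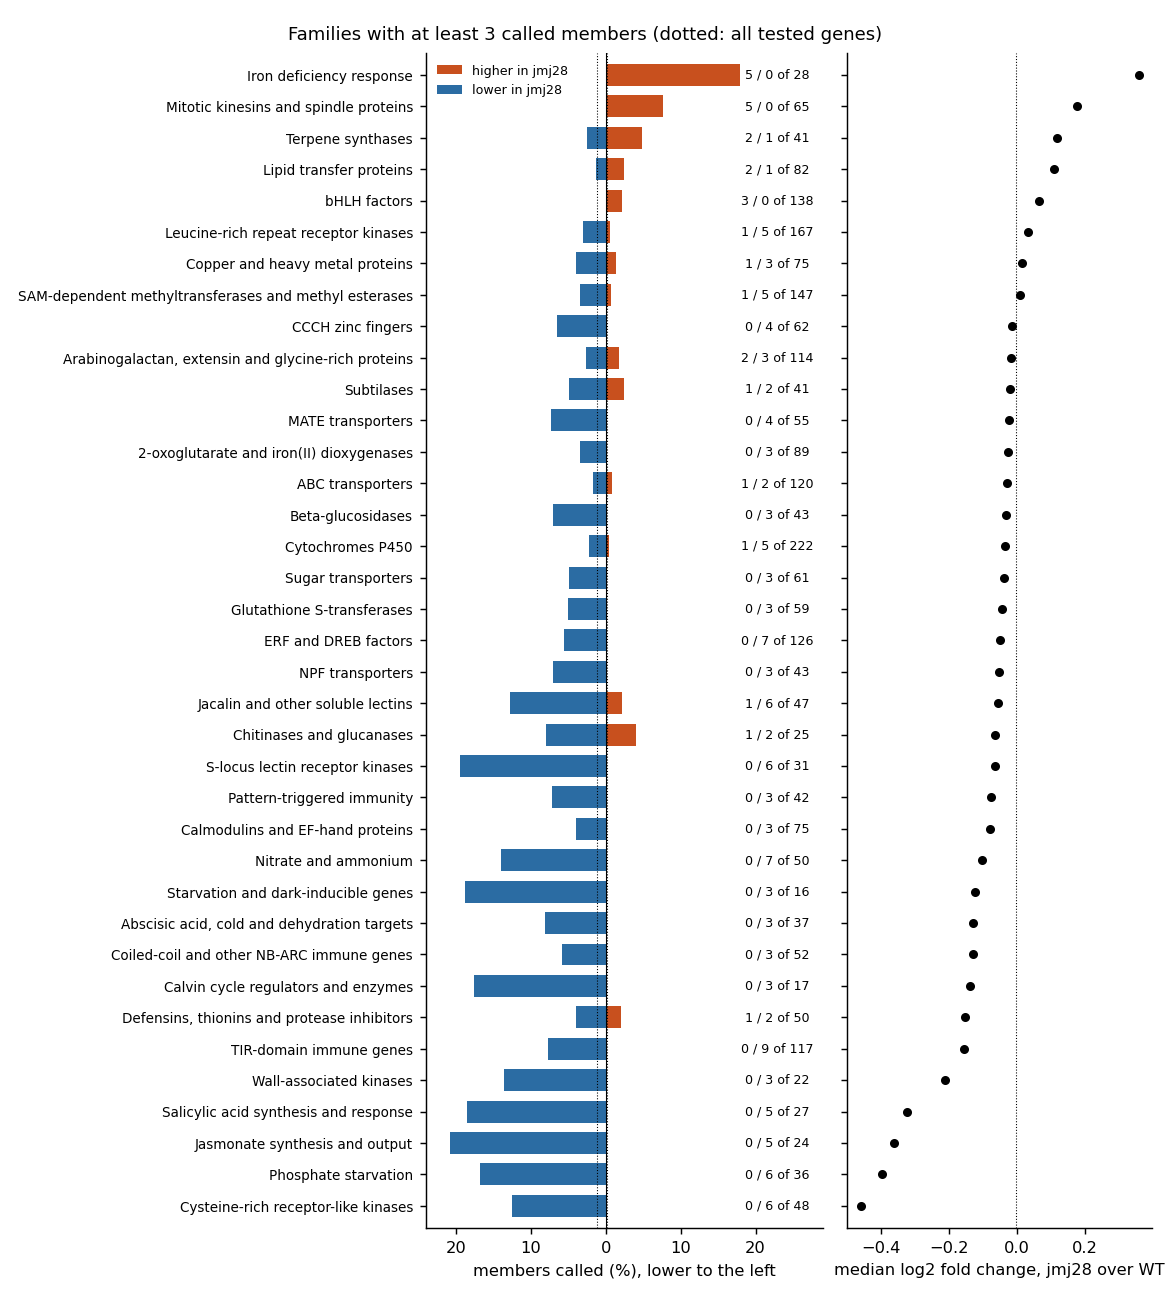
Families with at least 3 called members and at least 10 tested ones, ordered by median. The left panel gives the percent of members called higher (orange) or lower (blue) in jmj28, with counts as higher / lower of tested, and the right panel gives the median log2 fold change, jmj28 over WT. Iron deficiency and mitotic genes head the rows, and cysteine-rich receptor-like kinases (median -0.46) close them.

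Receptor kinases of the cell surface had many falls. Across 6 families of receptor kinases and receptor-like proteins, 23 of 362 tested genes were lower in jmj28 and 1 was higher, which is 6.63% called against 1.3% of all genes. The cysteine-rich receptor-like kinases (CRKs) carry cysteine-rich domains on their outer side and are known from responses to pathogens and reactive oxygen. Of 48 tested CRKs 6 fell, none rose and only 10 lay above 0, with a median of -0.46. Over the 19 CRKs of at least 5 RPKM the median was -0.14. CRK5, whose overexpression is known to speed defence cell death, had an implied 1.25 RPKM in jmj28, against 3.24 and 3.75 RPKM in WT. Its log2 fold change was -1.49 at an FDR of 0.000772, per the authors' deposited table. CRK4 (listed as CRK4_1) had an implied 1.94 RPKM in jmj28, against 4.36 and 4.03 RPKM in WT. In these genes neither WT library came down to the jmj28 mean, and they lay within a narrow range of each other. CRK13 and CRK14, neighbours on chromosome 4, were less even. CRK14 had an implied 0.520 RPKM in jmj28, against 1.18 and 3.08 RPKM in WT. Without the shallower WT library its log2 ratio was -1.19 in place of -2.03, and that of CRK13 was -0.65 in place of -1.28. CRK13 also shares 31.4% of its exon bases with near-identical sequence elsewhere, so part of its reads could be placed on a copy. CRRSP38, a secreted protein with the same cysteine-rich domain and no kinase, had an implied 5.76 RPKM in jmj28, against 14.6 and 19.8 RPKM in WT, a log2 fold change of -1.58 and an FDR of 7.14e-09, per the authors' deposited table.

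S-locus lectin receptor kinases, which resemble the self-recognition receptors of Brassica stigmas, had 6 falls and no rise among 31 tested genes (19.4%). Their median was -0.07 over all members and -0.29 over the 14 members of at least 5 RPKM. SD17 had an implied 0.635 RPKM in jmj28, against 1.39 and 2.48 RPKM in WT, and its neighbour SD16 had an implied 15.8 RPKM in jmj28, against 22.8 and 23.1 RPKM in WT. These neighbours hold near-identical stretches over 39.5% (SD17) and 35.1% (SD16) of their exon bases, so the division of reads between them is uncertain. SD11 (implied 6.05 RPKM in jmj28, against 9.19 and 10.5 RPKM in WT) and AT2G19130 (implied 3.43 RPKM in jmj28, against 6.19 and 5.60 RPKM in WT) have no such copy, and both fell.

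Wall-associated kinases bind pectin in the cell wall and signal wall damage. Of 22 tested members 3 fell and none rose, with a median of -0.21. WAK1 had an implied 12.6 RPKM in jmj28, against 27.7 and 33.5 RPKM in WT, with a log2 fold change of -1.28 and an FDR listed as 0, per the authors' deposited table. WAK2, next to it in a row of kinase genes on chromosome 1, had an implied 15.3 RPKM in jmj28, against 21.7 and 20.4 RPKM in WT. The large family of leucine-rich repeat receptor kinases did not shift as a whole, with a median of 0.03 and 90 of 167 members above 0. It nevertheless had 5 falls and 1 rise. Among the falls were SOBIR1, the co-receptor of receptor-like proteins, at -0.54 with an FDR of 3.28e-05 per the authors' deposited table, and AT5G59670, with an implied 1.58 RPKM in jmj28 against 3.57 and 3.73 RPKM in WT. The rise was AT1G51830, with 16.2 and 18.6 RPKM in jmj28, against an implied 13.6 RPKM in WT. It was the smallest of the rises, at an FDR of 0.0475 in the authors' deposited table.

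Pattern-triggered immunity, the response to microbial molecules such as flagellin, had 3 falls and no rise among 42 listed genes, SOBIR1 among them. SIRK, also known as FRK1 and used widely as a marker of flagellin perception, had an implied 1.26 RPKM in jmj28, against 4.02 and 5.49 RPKM in WT. The authors' deposited table gave it a log2 fold change of -1.91 (FDR 2.34e-09). SERK4, a co-receptor kinase of several such receptors, had an implied 10.7 RPKM in jmj28, against 13.7 and 14.5 RPKM in WT. Near-identical copies cover 33.3% of the exon bases of SERK4, so its reads could be divided with a copy.

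The promoters of SIRK and CRK5 are printed because they hold the W-box, the site that WRKY factors bind in defence genes, within the bases just before the gene start. The W-box was searched as TTGACC or TTGACT on both strands of the 250 bases before each gene start (TAIR10.1, RefSeq). The capitals mark each match on the printed strand, which is the strand of the gene. SIRK lies on the minus strand at chr2:8329945-8330194 and CRK5 on the minus strand at chr4:12120221-12120470.
SIRK: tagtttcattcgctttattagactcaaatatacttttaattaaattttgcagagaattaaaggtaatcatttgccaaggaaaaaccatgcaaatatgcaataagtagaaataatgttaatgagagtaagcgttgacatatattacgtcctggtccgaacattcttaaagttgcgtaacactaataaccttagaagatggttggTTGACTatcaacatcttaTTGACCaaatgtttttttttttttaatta
CRK5: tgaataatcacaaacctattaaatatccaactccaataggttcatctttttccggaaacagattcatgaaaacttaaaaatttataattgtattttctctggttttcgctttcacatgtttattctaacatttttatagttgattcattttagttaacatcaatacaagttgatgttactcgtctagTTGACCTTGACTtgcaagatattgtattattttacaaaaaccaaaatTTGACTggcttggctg
In SIRK the matches begin 47 and 29 bases before the gene start, and in CRK5 they begin 63, 57 and 16 bases before it, the first and second of them directly joined. The motif is common. It was present in 28.5% of the promoters of all tested nuclear genes, in 28.6% of those of the rises and in 39.9% of those of the falls. It was present in 4 of the 6 called CRKs and in 30 of all 48 tested CRKs (62.5%), so the family holds it whether or not a member was called. Of the 9 called TIR genes 4 had it, and of all 117 tested TIR genes 51 (43.6%). WRKY70, itself a W-box binding factor of salicylic acid defence, was the 1 called member of 68 WRKY genes, with an implied 19.2 RPKM in jmj28, against 39.5 and 31.4 RPKM in WT.

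Calls on the lists of intracellular immune receptors were all falls. Of 169 tested genes on the TIR and NB-ARC lists 12 fell and none rose, and 29.6% lay above 0. TIR-domain genes, which code for a domain known to cleave NAD to start immune signalling, had 9 falls among 117 genes and a median of -0.16. AT3G04210 had an implied 10.5 RPKM in jmj28, against 20.7 and 19.3 RPKM in WT, with a log2 fold change of -0.94 and an FDR of 3.27e-08, per the authors' deposited table. AT1G56520 had an implied 2.5 RPKM in jmj28, against 3.95 and 4.68 RPKM in WT. AT3G44400 had an implied 0.763 RPKM in jmj28, against 1.63 and 1.52 RPKM in WT. Both genes keep their WT libraries above the jmj28 mean, but 12.4% and 17.2% of their exon bases have a near-identical copy.

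On the list of coiled-coil and other NB-ARC genes, 3 of 52 fell. HR4, counted on this list, is a homolog of the mildew resistance gene RPW8 and not itself an NB-ARC receptor. HR4 had an implied 14.8 RPKM in jmj28, against 34.1 and 69.6 RPKM in WT. Its log2 ratio was -1.20 without the shallower WT library, in place of -1.81. RPP13L4, also known as ZAR1 and the receptor that forms the wheel-shaped resistosome, had an implied 26.6 RPKM in jmj28, against 35.6 and 37.1 RPKM in WT. AT1G61300 had an implied 10.3 RPKM in jmj28, against 15.9 and 15.5 RPKM in WT.

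Of the TIR falls, 4 were immediate neighbours on chromosome 1, within 8.3 kb between positions 27432178 and 27440464 (TAIR10). AT1G72910 had an implied 6.57 RPKM in jmj28, against 24.9 and 12.8 RPKM in WT, and the gene named TIR had an implied 51.4 RPKM in jmj28, against 95.7 and 79.7 RPKM in WT. The deposited log2 fold changes of AT1G72900, AT1G72910, AT1G72920 and TIR were -0.97, -1.52, -1.57 and -0.77 in the authors' deposited table. On the far side AT1G72940 was at -0.87 (FDR 0.116) and AT1G72950 at -1.67 (FDR 0.691) in that same authors' deposited table, so neither passed. On the near side AT1G72890 was at -0.41 and AT1G72870 at 0.52 in the authors' deposited table, and neither passed. Near-identical copies cover 72.1% of the exon bases of AT1G72920, 62.9% of TIR and 44.3% of AT1G72910, and those copies lie in the same row of TIR genes. The division of reads between these genes is uncertain.

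**Figure D3:**
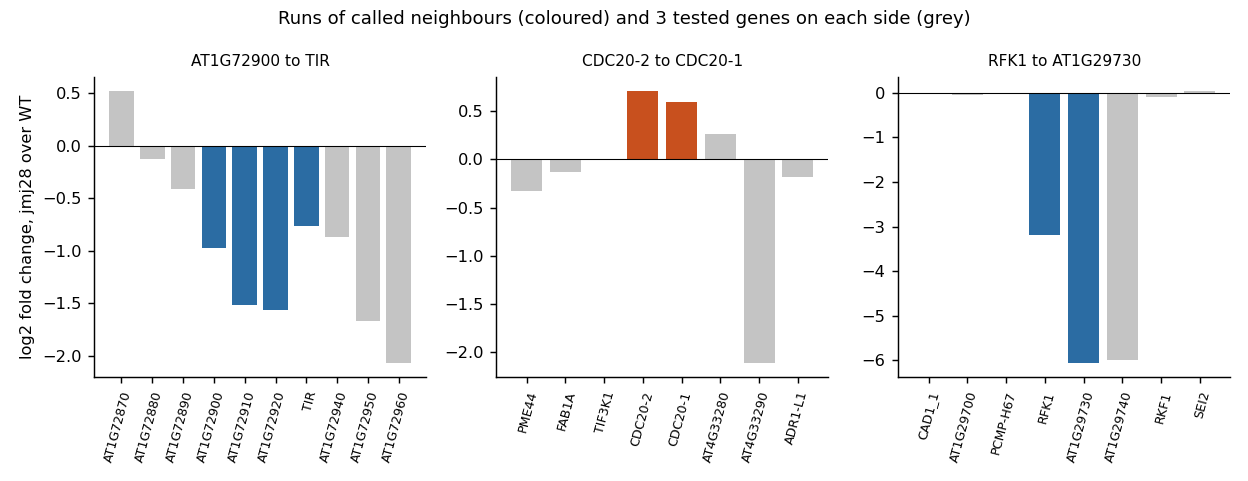
Deposited log2 fold change, jmj28 over WT, of called neighbours (coloured) and of the 3 tested genes on each side (grey), in gene order, for 3 runs. The TIR run falls together, the CDC20 pair rises between flanks at or below 0.26, and RFK1 and AT1G29730 fall beside AT1G29740, which is at -6.0 but had a higher mean of only 0.142 RPKM and did not pass.

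Called neighbours were not limited to the TIR cluster. Of 23533 pairs of adjacent tested genes, 18 (0.0765%) had both genes called, and in none of these did the directions differ. They formed 16 runs with 34 genes. Beside those already given, the falls included the glutathione S-transferases GSTF7 and GSTF6, the kinases RFK1 and AT1G29730, the vegetative storage proteins VSP2 and VSP1, the ethylene response factors ERF107 and ERF104, and the purine permeases PUP7 and PUP22. The single rising run was CDC20-2 and CDC20-1. In 2 runs, MRD1 with HEI10 and AT4G11890 with AT4G11900, the gene models overlap, and reads of one cannot be told from those of the other without strand.

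Output genes of defence had calls in several families, mostly falls. Of 27 salicylic acid genes 5 fell and none rose, and only 3 lay above 0 (median -0.32). Besides PR1 and WRKY70 these were LURP1, a gene of downy mildew responses, with an implied 20.4 RPKM in jmj28 against 45.5 and 45.9 RPKM in WT, AED1, an aspartyl protease of the apoplast, and ACD6, an ankyrin protein that promotes salicylic acid. LURP1 had a log2 fold change of -1.16 and an FDR listed as 0, per the authors' deposited table. ACD6 had an implied 50.7 RPKM in jmj28, against 82.1 and 76.7 RPKM in WT. Of 24 jasmonate genes 5 fell and none rose (median -0.36). CORI3, a jasmonate-induced cystine lyase, had an implied 17.4 RPKM in jmj28, against 25.4 and 29 RPKM in WT. ERF094 (ORA59), the factor that joins jasmonate and ethylene signals, had an implied 2.93 RPKM in jmj28, against 6.69 and 6.31 RPKM in WT. TAT3, a tyrosine aminotransferase, rests on 1 library. It had an implied 0.544 RPKM in jmj28, against 0.212 and 9.15 RPKM in WT, and without the shallower WT library its log2 ratio was 1.36 in place of -3.10. The 13 JAZ repressors, which hold jasmonate output back, had no call. Their median was -0.21, and JAZ9 was at -0.42 (FDR 0.281) in the authors' deposited table.

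Soluble lectins bind sugars of microbes and of the plant's own proteins. Of 47 tested lectins 6 fell and 1 rose. JAL23, a jacalin-type lectin, had an implied 1.60 RPKM in jmj28, against 4.84 and 5.99 RPKM in WT (change -1.76 on the log2 scale with an FDR of 8.9e-09, per the authors' deposited table). The legume-type lectin AT3G16530 was measured in all 4 libraries, at 61.3 and 61.7 RPKM in jmj28, against 104 and 93.3 RPKM in WT, with no overlap. The rise went the other way just as cleanly. AT1G52100, a mannose-binding lectin, had 12 and 10.1 RPKM in jmj28, against 4.74 and 5.98 RPKM in WT, with a log2 fold change of 1.03 and an FDR of 8.26e-08, per the authors' deposited table. Chitinases cut fungal walls, and they were divided as well. AT2G43620 had an implied 18.2 RPKM in jmj28, against 58.9 and 159 RPKM in WT. Leaving out the shallower WT library gave AT2G43620 a log2 ratio of -1.70 in place of -2.59. HEL (PR4) had 109 and 102 RPKM in jmj28, against 149 and 135 RPKM in WT. AT2G43590, a chitinase of the same product name, was higher, with 119 and 122 RPKM in jmj28, against an implied 92.8 RPKM in WT.

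Small defence proteins gave 2 falls and 1 rise among 50 genes, with only 11 members above 0 (median -0.15). The trypsin inhibitor ATTI1 had an implied 20.6 RPKM in jmj28, against 32.4 and 41.6 RPKM in WT. The defensin PDF2.1 rose, with 65.2 and 68.4 RPKM in jmj28, against 37.5 and 36.4 RPKM in WT, so that all 4 libraries separated widely. Subtilases, secreted proteases, also went both ways. ATSBT3.12 had an implied 0.586 RPKM in jmj28, against 3.92 and 3.95 RPKM in WT (change -2.75 on the log2 scale with an FDR listed as 0, per the authors' deposited table). SBT4.12 had 19.3 and 22.3 RPKM in jmj28, against an implied 14.4 RPKM in WT.

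MATE transporters, which export organic compounds and ions, had 4 falls and no rise among 55 genes, although their median was -0.02. DTX2 had an implied 3.38 RPKM in jmj28, against 8.03 and 6.22 RPKM in WT, and DTX14 had an implied 2.01 RPKM in jmj28, against 4.04 and 4.10 RPKM in WT. DTX2 has near-identical copies over 31.3% of its exon bases, which leaves its own share of reads uncertain. Glutathione S-transferases, which tag toxic compounds with glutathione, had 3 falls among 59, all of the phi class. GSTF6, an enzyme of camalexin synthesis, had an implied 68.0 RPKM in jmj28, against 114 and 145 RPKM in WT. GSTF7 was measured in all 4 libraries, at 99.9 and 110 RPKM in jmj28, against 138 and 142 RPKM in WT. Cytochromes P450 had 5 falls and 1 rise among 222 genes (2.70% called, median -0.03). CYP72A8 was the one with the smallest FDR, with an implied 22.8 RPKM in jmj28, against 36.7 and 38.4 RPKM in WT.

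Across 18 families of transcription factors 3 of 1083 members rose and 20 fell (2.12%), and the median was -0.02. The 3 rises were all on the bHLH list. Besides the iron regulators ORG2 (bHLH38) and BHLH100 the third was AT4G38062, with 3.51 and 3.25 RPKM in jmj28, against 2.09 and 1.70 RPKM in WT. AT4G38062 carries no symbol beyond its locus name, and its place on that list rests on annotation alone. The ERF, ZAT, CCCH and VQ families together had 15 falls and no rise among 230 genes (6.52%). ERF2 had an implied 6.91 RPKM in jmj28, against 16.9 and 10.8 RPKM in WT. SZF1, a CCCH protein of salt stress, had an implied 6.94 RPKM in jmj28, against 18.6 and 10.5 RPKM in WT. SIB1, a VQ protein that binds sigma factors and WRKY33, had an implied 5.44 RPKM in jmj28, against 13.7 and 9.47 RPKM in WT. TEM1 and RAV2 (TEM2), repressors of flowering, were the called members of 9 AP2-type repressors. TEM1 had an implied 13.9 RPKM in jmj28, against 35.6 and 23.2 RPKM in WT, and a log2 fold change of -1.08 and an FDR of 4.97e-07, per the authors' deposited table. The only call among 52 genes of MAP kinase cascades (1.92%) was MKK9, a MAP kinase kinase of ethylene signalling, with an implied 6.90 RPKM in jmj28 against 16.3 and 10.2 RPKM in WT.

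The WT libraries of these stress genes shared an order. In 15 of the 15 falls of the ERF, ZAT, CCCH and VQ families the deeper WT library was the higher one, and the median log2 ratio of shallower over deeper library was -0.64. Over all 10693 genes of at least 5 RPKM that ratio had a median of 0.02 and an SD of 0.18. The shallower WT library was nevertheless above the jmj28 mean for these genes, by a median of 0.60 on the log2 scale. When the deeper WT library was left out, the log2 ratio of ERF104 was -0.58 in place of -1.63, that of ERF018 was -1.16 in place of -2.43, that of ZAT10 was -1.02 in place of -1.78, that of CAF1-9, a deadenylase of mRNA decay, was -1.01 in place of -2.03, that of PUMP4, a mitochondrial carrier, was -0.87 in place of -2.25, and that of the EF-hand gene AT4G27280 was -0.37 in place of -1.49. An exact two-sided permutation test of 2 against 2 libraries cannot go below 0.33, so no single gene can be settled from its libraries alone. In the receptor kinases and receptor proteins the order was mixed, with the shallower WT library higher in 16 of 22 falls, and the lower WT library lay above the jmj28 mean by a median of 0.94. On the TIR and NB-ARC lists the shallower WT library was higher in 4 of 12 falls, and that distance was 0.81. The part that 1 WT library plays in each family was measured only in this way and its cause was not tested.

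**Figure D4:**
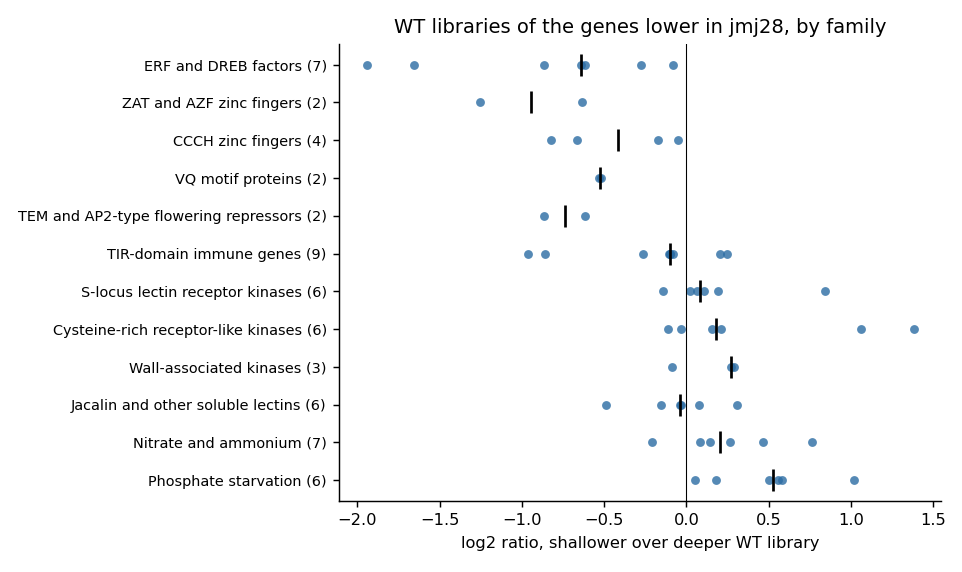
Log2 ratio of the shallower over the deeper WT library (horizontal axis) for each gene lower in jmj28, by family, with the number of falls in brackets and the median as a vertical mark. All points of the ERF, ZAT, CCCH, VQ and TEM families lie left of 0, those of phosphate starvation lie right of 0, and the receptor families lie on both sides.

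Genes of phosphate starvation behaved in the opposite way between the WT libraries. When phosphate is short, plants replace phospholipids by galactolipids, secrete phosphatases and lift the block by SPX proteins on PHR factors. Of 36 tested genes 6 fell and none rose, 6 lay above 0 and the median was -0.40. PS2 (listed as PS2_1), a pyrophosphatase, had an implied 2.94 RPKM in jmj28, against 7.65 and 15.5 RPKM in WT. GDPD1, which releases glycerol phosphate from lipid breakdown, had an implied 18.2 RPKM in jmj28, against 27.8 and 40.9 RPKM in WT. PLPZETA2, a phospholipase D, had an implied 1.42 RPKM in jmj28, against 2.65 and 3.97 RPKM in WT. PAP12 (listed as PAP12_2), a purple acid phosphatase, had an implied 21.5 RPKM in jmj28, against 27.1 and 28.1 RPKM in WT. The shallower WT library was the higher one in 6 of 6, with a median log2 ratio of 0.53. Without it the log2 ratio of PS2 was -1.38 in place of -1.97.

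The promoters of 4 of these genes are printed because they hold GNATATNC, the palindromic site that PHR factors bind. The search covered both strands of the same 250 bases, and the capitals mark this motif. PS2 lies on the minus strand at chr1:27466349-27466598, SPX3 on the plus strand at chr2:18606160-18606409, GDPD1 on the minus strand at chr3:350011-350260 and PLPZETA2 on the plus strand at chr3:1634944-1635193.
PS2: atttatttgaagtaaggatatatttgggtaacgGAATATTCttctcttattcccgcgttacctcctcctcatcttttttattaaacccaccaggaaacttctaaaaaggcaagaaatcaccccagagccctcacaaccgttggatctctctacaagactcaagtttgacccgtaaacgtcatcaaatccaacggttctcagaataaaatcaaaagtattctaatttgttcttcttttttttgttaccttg
SPX3: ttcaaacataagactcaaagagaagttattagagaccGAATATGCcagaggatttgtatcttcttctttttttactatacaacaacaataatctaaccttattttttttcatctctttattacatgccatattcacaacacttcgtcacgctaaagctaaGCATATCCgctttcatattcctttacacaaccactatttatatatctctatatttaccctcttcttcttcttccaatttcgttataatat
GDPD1: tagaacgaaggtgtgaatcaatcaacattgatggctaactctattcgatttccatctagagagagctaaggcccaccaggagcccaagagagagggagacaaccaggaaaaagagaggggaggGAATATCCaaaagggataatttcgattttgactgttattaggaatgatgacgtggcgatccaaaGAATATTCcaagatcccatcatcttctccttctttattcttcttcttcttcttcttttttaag
PLPZETA2: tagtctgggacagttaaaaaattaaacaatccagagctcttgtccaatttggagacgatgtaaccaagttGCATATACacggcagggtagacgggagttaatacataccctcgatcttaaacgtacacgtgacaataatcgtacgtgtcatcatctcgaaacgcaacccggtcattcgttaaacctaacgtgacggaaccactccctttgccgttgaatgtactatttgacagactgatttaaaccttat
The matches begin 217 bases before the start of PS2, 213 and 90 before SPX3, 127 and 63 before GDPD1, and 180 before PLPZETA2. The motif was present in 5.39% of the promoters of all tested genes, in 0 of the 49 rises, in 29 of the 258 falls (11.2%), and in 12 of the 36 tested phosphate genes (33.3%). A match is a description of these letters and not a measured binding site. Of the other motifs searched on both strands, the G-box CACGTG was in 12.2% of the rises, 5.43% of the falls and 7.12% of all promoters, CGCGTT was in 0 of the rises, 2.33% of the falls and 2.78% of all, and AAAATATCT was in 2.04% of the rises, 3.88% of the falls and 2.48% of all. CGCGTT, reported from promoters of rapid stress genes, was in none of the 19 called ERF, ZAT, CCCH, calmodulin-like, CAF1 and VQ genes.

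Calls among nitrogen genes were all falls. Of 50 nitrate and ammonium genes 7 fell and none rose (14.0% called, median -0.10). NRT2.5, the high-affinity nitrate transporter of starved plants, had an implied 0.256 RPKM in jmj28, against 2.0 and 3.40 RPKM in WT. NRT3.1, the partner protein of such transporters, had an implied 14.6 RPKM in jmj28, against 19.4 and 23.3 RPKM in WT. NPF2.13, which loads nitrate into the phloem of old leaves, had an implied 31.2 RPKM in jmj28, against 39.3 and 41.5 RPKM in WT. GLN1-1, a glutamine synthetase, had an implied 95.4 RPKM in jmj28, against 120 and 166 RPKM in WT. Sugar and polyol transporters had 3 falls among 61 genes. PLT5 had an implied 21.1 RPKM in jmj28, against 26.9 and 29.6 RPKM in WT, and the related PLT6 had an implied 11.4 RPKM in jmj28, against 17 and 18.4 RPKM in WT. Sulfate genes gave 1 rise, APS4, an enzyme that activates sulfate, and 1 fall, SULTR3;1 (listed as SULTR3_3).

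The list of iron deficiency genes had 5 rises and no fall among 28 (17.9%), with 23 members above 0 and a median of 0.36. IRT1, the root iron transporter, had 24.3 and 41.0 RPKM in jmj28, against an implied 16.7 RPKM in WT, and FRO2, the ferric reductase, had 7.64 and 12.9 RPKM in jmj28, against an implied 5.09 RPKM in WT. In IRT1, FRO2 and CYP82C4 the shallower jmj28 library was the higher one, while in ORG2 and BHLH100 it was the deeper. Beside these genes AT1G47400 (IMA1) and AT2G30766 (IMA3), signal peptides of iron deficiency, also rose. Their log2 fold changes were 0.83 (FDR 0.0134) and 0.65 (FDR 0.00228), per the authors' deposited table. BHLH100 had 24.8 and 10.6 RPKM in jmj28, against an implied 7.69 RPKM in WT, and without the deeper jmj28 library its log2 ratio was 0.47 in place of 1.21. Genes of copper and heavy metals had 3 falls and 1 rise among 75, with 38 members above 0 and a median of 0.02. FSD1, the iron superoxide dismutase that copper shortage raises, had an implied 437 RPKM in jmj28, against 554 and 632 RPKM in WT. The copper transporter COPT6 had an implied 30.7 RPKM in jmj28, against 38.6 and 41.2 RPKM in WT.

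Among genes of the photosystems and the Calvin cycle, the calls lay in regulators of that cycle. Of 17 genes on that list 3 fell and none rose, and 2 lay above 0 (median -0.14). CP12-1 and CP12-2, small proteins that hold Calvin cycle enzymes inactive in the dark, had an implied 679 and 504 RPKM in jmj28. In WT CP12-1 had 818 and 857 RPKM and CP12-2 had 619 and 630 RPKM, so their WT libraries lay very close together. FTRA1, a subunit of the reductase that activates the cycle in light, had an implied 29.6 RPKM in jmj28, against 37.2 and 40.2 RPKM in WT. Photosystem and light-harvesting genes had no call among 50, but only 6 lay above 0 (median -0.09). PSBR, a subunit of photosystem II, came closest, with an implied 3967 RPKM in jmj28, against 4831 and 4786 RPKM in WT (FDR 0.0628 in the authors' deposited table). Starch enzymes had no call among 33, with 7 above 0. Light stress proteins of the thylakoid had 1 rise and 1 fall among 5 (median -0.15). ELIP1 rose, with 14.9 and 10.7 RPKM in jmj28, against an implied 7.30 RPKM in WT. AT2G21970 (listed as SEP2_1) fell, with a log2 fold change of -0.36 and an FDR of 0.0174, per the authors' deposited table.

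Terpene and flavonoid synthesis each gave 2 rises. Among 41 terpene synthases TPS27, the cineole synthase of roots, had 18.4 and 17.6 RPKM in jmj28, against an implied 11.3 RPKM in WT. An exact copy, AT3G25830, covers all of its exon bases, so these reads could belong to either gene. AT5G48110 was measured in all 4 libraries, at 5.28 and 5.39 RPKM in jmj28, against 3.22 and 2.99 RPKM in WT. LUP1, a triterpene synthase, went the other way, with an implied 11.5 RPKM in jmj28, against 16.9 and 18.2 RPKM in WT. The flavonoid enzyme CHI3 had 35.3 and 30.3 RPKM in jmj28, against 24.8 and 24.7 RPKM in WT, and F3H had 36.0 and 35.7 RPKM in jmj28, against 22.4 and 22.2 RPKM in WT. Methyltransferases and methyl esterases had 5 falls and 1 rise among 147 genes. AT2G32160 had an implied 2.39 RPKM in jmj28, against 6.85 and 6.74 RPKM in WT (change -1.51 on the log2 scale with an FDR of 9.75e-11, per the authors' deposited table), and MES18 had an implied 5.43 RPKM in jmj28, against 12.7 and 14.3 RPKM in WT.

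Calls among genes of cell division were all rises. Across cyclins, spindle and kinesin genes, replication genes and core histones, 6 of 255 rose, none fell, 72.9% lay above 0, and the median was 0.11. That is 2.35% called higher, against 0.208% of all tested genes. Mitotic kinesins and spindle proteins held 5 of the rises among 65 genes (7.69%), with 49 above 0 (median 0.18). KIN12A (PAKRP1), a kinesin of the phragmoplast that builds the new wall, had 3.7 and 2.29 RPKM in jmj28, against an implied 1.64 RPKM in WT. TOP2, the topoisomerase that untangles chromosomes, was measured in all 4 libraries, at 14.9 and 13.7 RPKM in jmj28, against 9.71 and 9.05 RPKM in WT. CDC20-1, an activator of the anaphase-promoting complex, had 30.9 and 23.9 RPKM in jmj28, against an implied 18.2 RPKM in WT, and CDC20-2 had 15 and 12.1 RPKM in jmj28, against an implied 8.26 RPKM in WT. These neighbours share near-identical sequence over 53.9% and 58.3% of their exon bases. KIN7F had 15 and 14.2 RPKM in jmj28, against an implied 10.5 RPKM in WT. Replication genes had no call among 44, yet 38 lay above 0 (median 0.15). CDT1A, a licensing factor of replication, had 9.32 and 9.07 RPKM in jmj28, against 6.64 and 7.19 RPKM in WT, with a log2 fold change of 0.38 and an FDR of 0.429, per the authors' deposited table. Core histones had no call among 50, with 37 above 0. Ribosomal protein genes (222 of 334 above 0, median 0.04) and pentatricopeptide genes of organelle RNA (193 of 293 above 0, median 0.07) had 1 call between them, a fall of a ribosomal protein gene.

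Cell wall and surface proteins were called in both directions. Arabinogalactan, extensin and glycine-rich proteins had 2 rises and 3 falls among 114. AGP22 had 13.2 and 16.4 RPKM in jmj28, against an implied 8.23 RPKM in WT. GRP3, a glycine-rich ligand of WAK1, had an implied 535 RPKM in jmj28, against 819 and 849 RPKM in WT, with a log2 fold change of -0.64 and an FDR of 1.98e-11, per the authors' deposited table. The germin-like gene AT5G38910 had 10.6 and 14.0 RPKM in jmj28, against 3.87 and 6.67 RPKM in WT. PME68, a pectin methylesterase, had 119 and 105 RPKM in jmj28, against an implied 75.7 RPKM in WT. Class III peroxidases gave 1 rise, PER50, with 76.4 and 72.9 RPKM in jmj28 against 57.4 and 51.3 RPKM in WT, and 1 fall, PER33. Of the lipid transfer proteins AT3G53980 had 72.7 and 64.4 RPKM in jmj28, against 42.7 and 47.5 RPKM in WT, whereas LTP4 rests on 1 library. LTP4 had 7.74 and 0.307 RPKM in jmj28, against an implied 0.618 RPKM in WT, and without the deeper jmj28 library its log2 ratio was -1.01 in place of 2.70.

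Markers of tissues were set beside these values. Of 17 root markers 2 rose (AGP30 and TIP2;3), 13 lay above 0 and the median was 0.24, and their summed level was 277.52 RPKM in jmj28, against 220.2 RPKM in WT. Of 6 leaf markers none was called, 1 lay above 0 and the median was -0.09, with sums of 18624.48 RPKM in jmj28 and 19694.25 RPKM in WT. The root markers moved with the rises of iron genes, AT5G38910 and TPS27, and their part in those values was not tested. The leaf markers are light-harvesting proteins, Rubisco small subunits and Rubisco activase. The photosystem list also covers antenna and Rubisco small subunit genes, so the leaf markers are no separate readout beside its negative median. Guard cell markers had no call among 6 (median -0.09). Flower markers lay under 1 RPKM in 7 of 9, and SEP3 (4.29 RPKM) and PI (1.16 RPKM) lay above it. Of 8 seed markers 5 were tested and of 5 pollen and anther markers 1 was tested, and all of these lay under 1 RPKM. The remaining seed and pollen markers had no test, so their levels are not given here. Low levels of such markers cannot tell seedlings from another harvest without flowers or seeds.

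**Figure D5:**
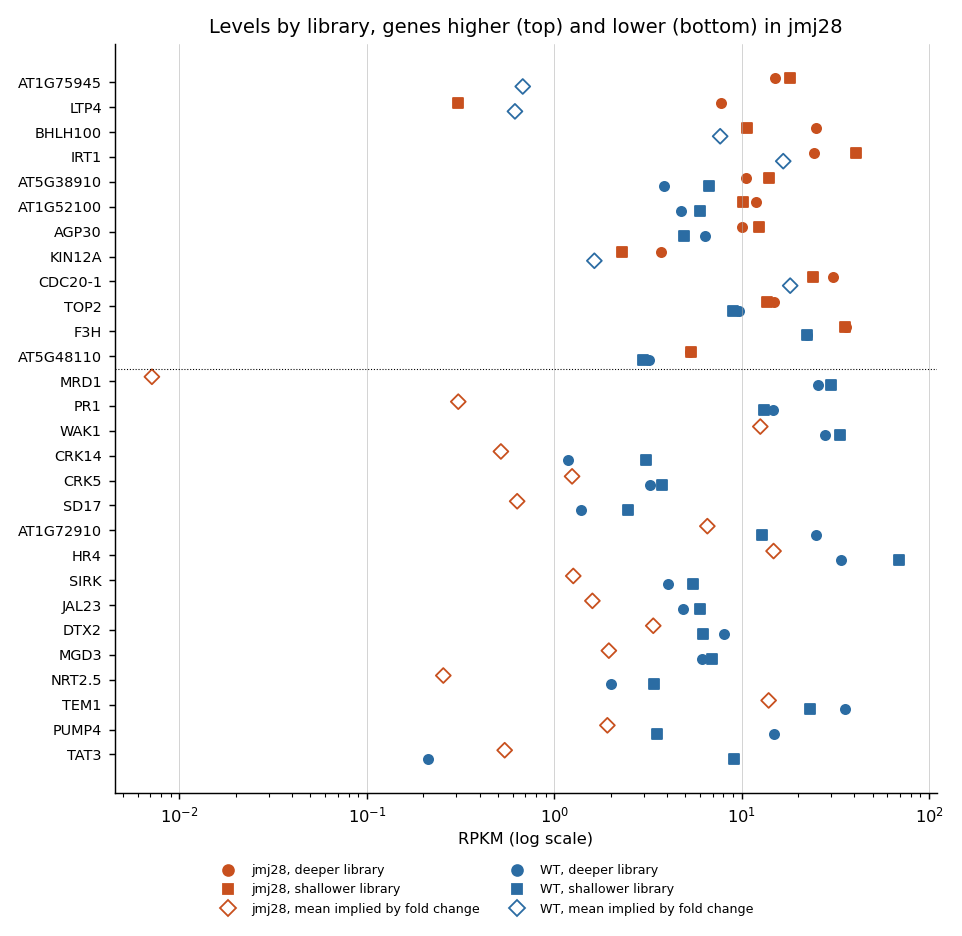
RPKM (log axis) of genes higher in jmj28 (above the dotted line) and lower in jmj28 (below it), with jmj28 in orange above WT in blue for each gene. Circles are deeper and squares shallower libraries, and open diamonds are means implied by the deposited fold change. The WT squares and circles lie far apart for TAT3, PUMP4, CRK14 and HR4, and close together for WAK1, CRK5, MGD3 and TOP2.

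Many families of developmental regulators had no call. Among them were 71 bZIP, 97 homeobox, 75 MADS, 38 GRAS, 33 DOF, 29 B-box, 24 TCP and 20 heat shock factors, with medians between -0.07 and 0.05. The 73 SAUR, 32 XTH, 32 clock, 20 RNA silencing and 16 ethylene synthesis genes had none either. Over all tested genes 1.3% were called, so families of such sizes would hold few calls at that share. Many members were also rare transcripts, with 11 of 75 MADS and 16 of 33 DOF genes at 5 RPKM or more. Of all genes under 1 RPKM 0.105% were called. The lack of a call is thus no trait of these families. Some of their members came close. The GRAS gene SCL30_1, whose model overlaps AT3G46610, was at -0.58 with an FDR of 0.0512 per the authors' deposited table. BZIP18 had 11.8 and 11.6 RPKM in jmj28, against an implied 8.10 RPKM in WT (FDR 0.0579 in the authors' deposited table). XTH15, a wall-loosening enzyme, had 12.6 and 12.2 RPKM in jmj28, against 6.73 and 7.53 RPKM in WT (FDR 0.0545 in the authors' deposited table). The 14 gibberellin oxidases had a median of 0.24 with no call, and their leading members were rare transcripts. GA20OX2 had 0.473 and 0.707 RPKM in jmj28, against an implied 0.181 RPKM in WT (FDR 0.442 in the authors' deposited table). Of 16 JmjC genes JMJ28 was the only call, and of 33 genes of H3K9 and DNA methylation the only call was MORC2, a GHKL ATPase of the silencing machinery, with an implied 0.728 RPKM in jmj28 against 1.91 and 2.09 RPKM in WT. Of 362 F-box genes 2 were called (0.552%, below the share of all genes), AT1G80440 (KMD1) and SKIP20 (KMD4), which act in the breakdown of type-B response regulators of cytokinin signalling. AT1G80440 had an implied 13.3 RPKM in jmj28, against 32.9 and 20.3 RPKM in WT.

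Calls were spread over the nuclear chromosomes. The share called was 1.34% on chromosome 1, 1.59% on chromosome 2, 1.02% on chromosome 3, 1.62% on chromosome 4 and 1.14% on chromosome 5. No gene of the mitochondrial or plastid genome was called. The 76 tested mitochondrial genes nevertheless had a median log2 fold change of -0.48, against -0.0042 over all tested genes. That of the 65 plastid genes was -0.06. The cause was not tested. Over all chromosomes 49 genes rose and 258 fell. Rises and falls numbered 6 and 77 on chromosome 1, 8 and 49 on chromosome 2, and 8 and 39 on chromosome 3. They numbered 13 and 45 on chromosome 4 and 14 and 48 on chromosome 5. Within 1000 kb on either side of JMJ28, 4 of 434 tested genes rose and 9 fell (3.0%). These include IRT1, ATSBT3.12, which starts 61.9 kb before JMJ28, SBT3.13, and the CRK5, CRK9, CRK13 and CRK14 group between 709.7 and 746.3 kb beyond it. Position and family cannot be told apart here.

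Several of the largest falls lay outside the paragraphs above. PR1, the marker of salicylic acid defence, had an implied 0.308 RPKM in jmj28, against 14.7 and 13.2 RPKM in WT. HO3, a heme oxygenase whose model overlaps AT1G69730, had an implied 0.150 RPKM in jmj28, against 1.96 and 2.18 RPKM in WT. ASK4, an adaptor of ubiquitin ligases whose model overlaps AT1G20150, had an implied 1.13 RPKM in jmj28, against 6.37 and 6.07 RPKM in WT. In these 3 genes the WT libraries lay close together and far above the jmj28 mean. AT4G33720, a secreted protein of the PR1 family, had an implied 1.08 RPKM in jmj28, against 4.86 and 3.51 RPKM in WT. The uncharacterized AT1G35210 had an implied 0.453 RPKM in jmj28, against 3.48 and 1.09 RPKM in WT, and the glycine-rich protein AT1G07135 had an implied 6.03 RPKM in jmj28, against 38.2 and 9.31 RPKM in WT. These last genes were uneven between the WT libraries. When the deeper one was left out, AT1G35210 had a log2 ratio of -1.26 in place of -2.33, and AT1G07135 had -0.63 in place of -1.98.

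The largest fall and the largest rise were MRD1 and AT1G75945. MRD1 had an implied 0.00714 RPKM in jmj28, against 25.6 and 30.0 RPKM in WT, a log2 fold change of -11.93 and an FDR of 0.0122, per the authors' deposited table. The implied level is less than 1 read in either library, so the size of this fitted fold change is no measurement. HEI10, whose model overlaps MRD1, had 0.721 and 1.39 RPKM in jmj28, against 4.44 and 3.51 RPKM in WT. JMJ28np5-OE, compared with the same WT libraries, had 0.129 and 0 RPKM of MRD1 and a log2 fold change of -2.76 for HEI10 in the authors' deposited table. AT1G75945 was the largest rise, with 15 and 18.0 RPKM in jmj28, against an implied 0.680 RPKM in WT, and its log2 fold change was 4.6 in jmj28 and 5.04 in JMJ28np5-OE in the authors' deposited tables. AT1G17990 had 10.3 and 8.91 RPKM in jmj28, against an implied 5.06 RPKM in WT, and its exact copy AT1G18020 covers all of its exon bases. Its log2 fold change was 0.92 in jmj28 and 0.92 in JMJ28np5-OE in the authors' deposited tables. Both lines were compared with the same WT libraries.

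Large changes also occurred outside the calls, since 14 genes of at least 1 RPKM differed 4-fold or more without passing the FDR. They were listed after their values were seen. AT1G55673 was at 0 reads in both jmj28 libraries, against 15.6 and 23.2 RPKM in WT (FDR 0.0824 in the authors' deposited table), and it was also at 0 in both JMJ28np5-OE libraries. Its model overlaps AT1G55670. RPL30A was at 0 in the deeper and 8.51 RPKM in the shallower jmj28 library, against 0 in both WT libraries, so it rests on 1 library. BGL2 (PR2), a glucanase of salicylic acid defence, had an implied 1.18 RPKM in jmj28, against 1.10 and 9.65 RPKM in WT. The deeper WT library of BGL2 therefore lay below the jmj28 mean.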

How the data were processed

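RNA of 14-day seedlings was sequenced in 2 libraries of each genotype. The authors mapped reads to TAIR 10, per the submitters' processing notes, and no tool is named for their test in the sources used here. Per the file headers each gene of the deposited tables has the higher of the 2 genotype means, the fold change with its sign, the same on the log2 scale, and a p-value both raw and adjusted (FDR, Bonferroni). That mean has no stated unit and was read as RPKM, because scaled by exon length 98.9% of the highest means were solved by exactly 1 pair of whole read numbers, 1 per library, within 0.01 of a step. The deposited FDR under 0.05 was the test, and no count model was fitted.

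Reads per library were solved from the deposited RPKM means across the comparisons. On simulated data 94084 of 94084 solved values equalled the simulated reads. Where a genotype was never the higher one, its mean was implied by the other genotype's mean and the deposited fold change. Over 6544 genes with both means known, the log2 ratio of means exceeded the deposited log2 fold change by 0.0341 (SD 0.0075). Families were formed by symbol and RefSeq product, and promoters of 250 bases and near-identical copies (BLAST 2.17.0, 95% identity over at least 100 bases) came from RefSeq TAIR10.1. Python 3.11.15, pandas 2.3.3, NumPy 2.4.6, SciPy 1.17.1 and matplotlib 3.10.9 were used.

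The members and lists were chosen with earlier results of these data known. Genes were named from a list of 204 called genes and of genes without a call, and not all of them are named. The list holds JMJ28, the 20 largest rises and falls of at least 2 RPKM, up to 5 called members of each family by FDR, up to 3 by p in families without a call, and called neighbours. BGL2, AT1G55673, RPL30A and AT2G30766, and further genes in the closing part, were picked after their values were seen. Of the calls, 68 overlap another gene model, and the kit does not mark strand. Alternatives covered multiple testing, low values, fold size, overlap and single libraries.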

Additional observations from a re-analysis of the deposited data

How the results depend on the processing

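Against 49 genes higher and 258 lower in jmj28, the Bonferroni p left 9 higher and 86 lower, a 2-fold minimum left 10 and 104, and asking both libraries of the higher genotype to lie 1.5-fold above the other mean left 21 and 158. An unadjusted p under 0.05 with 1.5-fold gave 255 higher and 531 lower. Adjusting over tested genes alone gave 61 and 286, genes of at least 1 RPKM 66 and 313, at least 5 RPKM 64 and 262, a 1.5-fold minimum 34 and 189, and genes overlapping no other model 40 and 199. Of the family medians 617 values moved by less than 1 SD of a WT library (0.1293) and 13 by more. These counts do not measure stability. One alternative only subtracted the median of all tested genes (-0.0042), which moves no family by that much. When a library was left out, members without recovered reads kept their main value, and both genotypes were recovered for only 10836 tested genes. Under some alternative 40 families changed sign, none with a median beyond 0.1556 in size. Leaving out 1 library turned the direction of TAT3 (1.36 without the shallower WT library) and LTP4 (-1.01 without the deeper jmj28 library), and moved 24 of the 302 called genes with a recovered library over 1.5-fold, which includes 18 of the 204 chosen by the naming rule. The cause was not tested. The jmj28 libraries of most falls could not be left out, because the deposited means do not give them. No paired analysis was possible because the deposited columns carry no replicate number. Of the 2216 uncalled genes at 2-fold or more, 2045 lay under 1 RPKM, and the part that depth plays was not tested.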

Other observations

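Some called genes outside every family were highly expressed. The catalase CAT3 (listed as CAT3_1) had an implied 624 RPKM in jmj28, against 776 and 807 RPKM in WT, and ECS1 had an implied 641 RPKM in jmj28, against 994 and 937 RPKM in WT. HSPRO2, a gene of basal resistance, had an implied 9.44 RPKM in jmj28, against 37.6 and 13.4 RPKM in WT, and AHB1, a haemoglobin, had an implied 18.1 RPKM in jmj28, against 35.5 and 25.4 RPKM in WT. Both lay higher in the deeper WT library, and without it the log2 ratio of HSPRO2 was -0.50 in place of -1.43. Among the rises MSRB9, a methionine sulfoxide reductase, had 41.5 and 44.2 RPKM in jmj28, against 28.8 and 24.9 RPKM in WT.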
